A study of Mus musculus with 6 samples.

Results

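The LY6/uPAR family of surface proteins was followed through 6 of its genes, *Lypd8*, *Lypd8l*, *Lypd3*, *Ly6e*, *Ly6a*, and *Ly6d*, in mouse small intestinal organoids that had received MMK-1 or its vehicle. They are 6 of the 21397 genes of the deposited expression table. They were chosen by name with the measured difference between MMK-1 and Control known, *Lypd8l* because that difference is among the largest of all genes, so the members' differences between the groups are given as descriptions without a test. Of the 6 genes, *Lypd8*, *Lypd8l*, and *Ly6e* had a mean of at least 1 FPKM (fragments per length of the gene and depth of the library) over all libraries, which was the filter for tests across genes, so that 3 genes passed it. The other 3 did not reach it.

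The organoids were grown from the small intestine of *Fpr2*f/f mice, whose *Fpr2* alleles are floxed, in both groups. Control organoids received 0.1% DMSO and MMK-1-treated organoids received MMK-1, a synthetic peptide agonist of formyl peptide receptor 2, at 1 μmol/L, and both groups were collected on day 5. The treatment label of the MMK-1 libraries reads 1 mmol/L, while the protocol text gives the micromolar dose. Each group had 3 libraries, every one of them a pool of organoids from several mice, so that p-values below measure the spread between such pools. No *Cre* driver is given for these organoids. The epithelial markers were present throughout, and 20 enterocyte markers summed to between 10450 and 15540 FPKM in each library. The genes of the formyl peptide receptor family were not analysed here.

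LY6/uPAR proteins share a small, cysteine-rich domain of finger-like loops, and most are held at the outer face of the plasma membrane by a glycosylphosphatidylinositol (GPI) anchor. LYPD8 is known as a heavily glycosylated protein of the apical surface of intestinal epithelial cells, best studied in the colon, which binds flagellated bacteria and keeps them away from the epithelium. *Lypd8l* is its neighbour and namesake in the mouse genome. LY6E and LY6A (stem cell antigen-1, Sca-1) are encoded by genes that interferons can induce, and *Ly6a* is also used as a marker of fetal-like, regenerating intestinal epithelium. LYPD3 and LY6D are best known from squamous epithelia.

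*Lypd8* and *Lypd8l* lie on chromosome 11 in opposite orientation. In GENCODE vM21 on GRCm38, *Lypd8* covers chr11:58379043-58390728 on the plus strand with 7 exons and a coding sequence of 765 bases. *Lypd8l*, named 2210407C18Rik in that annotation, covers chr11:58608204-58616075 on the minus strand with 6 exons and a coding sequence of 660 bases. By their RefSeq spans, whose ends differ slightly from these, the 2 genes are separated by 217.7 kb. *Ly6d* (chr15:74762056-74763620, minus strand), *Ly6e* (chr15:74955051-74959905, plus strand), and *Ly6a* (chr15:74994877-74998031, minus strand) lie in the Ly6 gene cluster of chromosome 15, and *Lypd3* lies at chr7:24636550-24641118 on the plus strand.

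Because the names are alike, it was asked how much sequence *Lypd8* and *Lypd8l* share, since a fragment of one could otherwise be counted for the other. Their longest identical run within the coding sequences was 10 bases. Below, 60 coding bases of each gene around that run are shown 5′ to 3′ from GENCODE vM21 transcripts, with the shared run in capitals. The *Lypd8* stretch is chr11:58384703-58384762 on the plus strand and the *Lypd8l* stretch is chr11:58611988-58612047 on the minus strand, each within 1 exon.
Lypd8: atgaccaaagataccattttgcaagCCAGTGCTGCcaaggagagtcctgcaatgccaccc
Lypd8l: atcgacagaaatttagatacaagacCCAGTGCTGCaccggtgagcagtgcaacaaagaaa

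No window of 50, 100, or 150 bases of any *Lypd8*, *Lypd8l*, *Ly6e*, or *Ly6d* transcript occurred in a transcript of another GENCODE gene, so the shared windows amounted to 0% for each of these 4 genes at the read length of 150 bases. *Lypd3* shared no 150-base window either, but 1.94% of its 100-base windows and 8.12% of its 50-base windows occurred in the overlapping long non-coding gene *Gm26550*. For *Ly6a*, no 150-base window was shared, up to 2.44% of the 100-base windows of 1 transcript occurred in *Ly6c1*, and up to 16.0% of the 50-base windows of another occurred in *Ly6c1* or *Ly6i*. In the table, *Ly6c1* held 1 fragment in all 6 libraries together and *Ly6c2* held 1. Fragments whose position was ambiguous are handled by the counting program, and the setting used is not given in the sources used here.

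The start regions of *Lypd8* and *Lypd8l* are printed because the 2 genes differed in level and in response. They are RefSeq windows of 250 bases before and 50 bases after the annotated start on GRCm38.p6, with the letters TATAA in capitals. The *Lypd8* window is chr11:58378782-58379081 on the plus strand and the *Lypd8l* window is chr11:58613443-58613742 on the minus strand.
Lypd8: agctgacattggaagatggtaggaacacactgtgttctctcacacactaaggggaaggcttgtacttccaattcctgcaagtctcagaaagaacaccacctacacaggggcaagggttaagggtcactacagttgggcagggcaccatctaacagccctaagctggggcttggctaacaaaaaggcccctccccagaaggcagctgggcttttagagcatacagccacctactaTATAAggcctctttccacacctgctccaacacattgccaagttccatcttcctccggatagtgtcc
Lypd8l: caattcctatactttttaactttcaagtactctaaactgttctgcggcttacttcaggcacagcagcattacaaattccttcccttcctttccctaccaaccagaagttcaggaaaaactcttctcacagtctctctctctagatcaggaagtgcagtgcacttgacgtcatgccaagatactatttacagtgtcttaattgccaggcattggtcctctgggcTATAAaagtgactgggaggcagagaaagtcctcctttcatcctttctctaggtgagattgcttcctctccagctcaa

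TATAA begins 16 bases upstream of the start in the *Lypd8* window shown and 27 bases upstream in *Lypd8l*, and it occurs on the gene strand in 17.5% of 32851 RefSeq windows of this length. This motif was picked after the sequences were seen. The GC content is 51.3% in the *Lypd8* window and 44.0% in the *Lypd8l* window. RefSeq has a second *Lypd8* start window, chr11:58380396-58380695 on the plus strand, which has no TATAA and a GC content of 48.0%. A motif tied to interferon, the interferon-stimulated response element, was searched on both strands and is held by 3.4% of all windows. It does not occur in the windows of *Lypd8*, including the second start, of *Lypd8l*, or of *Lypd3*. RefSeq windows were matched for these 3 of the 6 members, and those of *Ly6e*, *Ly6a*, and *Ly6d* are not shown.

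The libraries held between 35512739 and 37537463 fragments. Of the 10551 genes tested with limma, 73.2% passed an adjusted p of 0.05, with 48.5% (5118 genes) higher and 24.7% (2606 genes) lower in MMK-1-treated organoids. Upper-quartile scaling gave 4104 higher and 3495 lower, which lowered the higher genes from 66.3% to 54.0% of those called, and moved the median log2 difference of all genes from 0.13 to 0.04. The groups did not overlap in 76.8% of the genes tested, with MMK-1 higher in 50.5%, and MMK-1 was higher without overlap in 34.6% of all genes above 0. MMK-1 replicate 3 stood apart from the other MMK-1 libraries, since the chi-square of their fragments divided by its degrees of freedom was 34.4 and 29.4 against them, 3.46 for the other MMK-1 pair, and no more than 4.78 for any control pair.

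*Lypd8*, the one member with an established role at the bacteria-facing surface, was the most abundant of the 6 genes and its mean differed between the groups by less than the spread between replicates. It measured 113, 115, and 116 FPKM in Control replicates 1 to 3 and 113, 114, and 122 FPKM in MMK-1 replicates 1 to 3. The values of the groups overlapped, and 2 of the 3 MMK-1 libraries lay below 2 of the control libraries. The means were 115 ± 1.45 FPKM in Control and 116 ± 4.79 FPKM in MMK-1 (SD, n = 3), resting on 4846 to 5448 fragments in a library. The difference on the log2(FPKM + 1) scale was 0.01 with a standard error of 0.04, and it turned to -0.10 under upper-quartile scaling. Ranked by FPKM, *Lypd8* stood between place 575 and place 582 in the control libraries and between place 491 and place 519 in the MMK-1 libraries.

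*Lypd8l* showed the largest difference of the 6 genes. It measured 0.455, 0.756, and 0.941 FPKM in the control libraries, from 15, 25, and 31 fragments, and 8.41, 10.9, and 10.3 FPKM in the MMK-1 libraries, from 263, 346, and 336 fragments. The lowest MMK-1 library was far above the highest control library. The means were 0.717 ± 0.246 FPKM in Control and 9.87 ± 1.31 FPKM in MMK-1 (SD, n = 3), a ratio of 13.8. Summed over the libraries of each group and set against the library totals, 71 control fragments faced 945 MMK-1 fragments, with a 95% counting interval of 10.8 to 17.8 for the ratio. On the log2(FPKM + 1) scale, which understates the change of a gene so low in the controls, the difference was 2.66 with a standard error of 0.12, and it was 3.65 with a pseudocount of 0.1. It was the 5th highest difference among the 10551 genes, just below *Lgr5* at 2.86, the receptor that marks crypt base stem cells, and just above *Cnn3* at 2.60, which encodes calponin 3. By level, *Lypd8l* moved from between places 10457 and 11382 to between places 5024 and 5848. Leaving out 1 library at a time, MMK-1 replicate 3 included, gave differences from 2.55 to 2.77.

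*Lypd8* remained the more abundant of the pair in every library. Its FPKM was 123 to 249 times that of *Lypd8l* in the control libraries and 10.4 to 13.5 times in the MMK-1 libraries. *Lypd8l* therefore made up 0.399%, 0.651%, and 0.804% of the summed FPKM of the 2 genes in Control replicates 1 to 3, and 6.92%, 8.78%, and 7.79% in MMK-1 replicates 1 to 3. In bulk RNA from organoids, a change in the number of cells of a type and a change in the RNA of each cell cannot be told apart.

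*Ly6e*, a broadly expressed LY6 protein known for its effects on virus entry, was the second most abundant member. It measured 8.33, 9.05, and 8.96 FPKM in the control libraries and 19.4, 19.9, and 21.7 FPKM in the MMK-1 libraries, from 1036 to 1128 and from 2293 to 2674 fragments. All 3 MMK-1 libraries were higher than all 3 control libraries, and the spread within each group was small beside the gap. The means were 8.78 ± 0.394 and 20.3 ± 1.17 FPKM (SD, n = 3), a ratio of 2.32. The log2(FPKM + 1) difference was 1.13 with a standard error of 0.05, place 230 among the genes tested, and it stayed between 1.08 and 1.16 when any 1 library was left out.

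*Ly6a* was close to the limit of detection. It measured 0.160, 0.0266, and 0.134 FPKM in the control libraries, from 6, 1, and 5 fragments, and 0.422, 0.444, and 0.484 FPKM in the MMK-1 libraries, from 15, 16, and 18 fragments. The groups did not overlap, and the ratio of fragments was 4.23 with a 95% counting interval of 2.22 to 8.73. Even in the MMK-1 libraries, *Ly6a* stood between place 11434 and place 11554 in the order of levels.

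*Ly6d* measured 0.0773, 0.0771, and 0.232 FPKM from 2, 2, and 6 fragments in the control libraries. In each MMK-1 library it had 9 fragments, equal to 0.367, 0.363, and 0.351 FPKM. The groups did not overlap, though Control replicate 3 was closer to the MMK-1 libraries than to the other 2 controls. The ratio was 2.79, with a 95% counting interval of 1.31 to 6.47.

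*Lypd3* was the lowest member and was barely detected. The control libraries held 0, 1, and 1 fragments and the MMK-1 libraries held 1, 5, and 0. A count of 0 allows up to 3 fragments, so that no difference could be read at this depth. The groups overlapped. All counting intervals given here cover counting error only. They were taken on fragments summed over the 3 libraries of a group, so the spread between libraries is not in them. The fragments also carry no molecular identifiers.

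**Figure D1:**
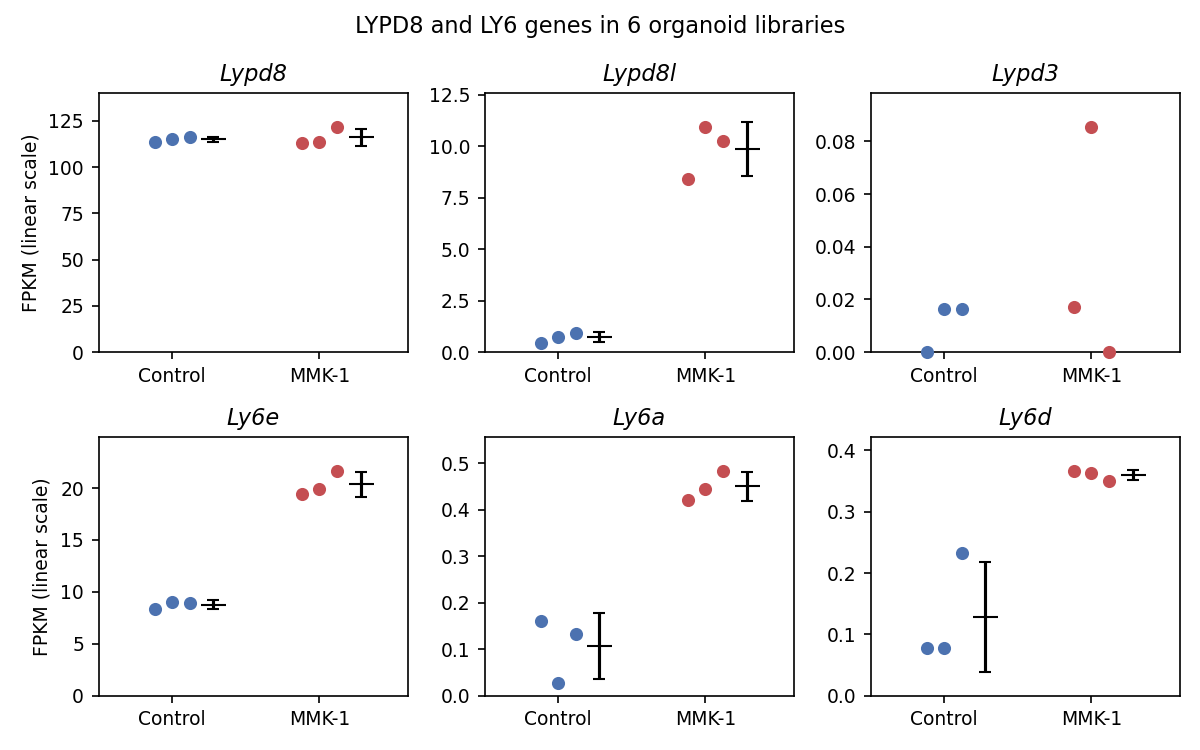
FPKM on a linear axis from 0 for each of the 6 genes in Control (blue) and MMK-1 (red) libraries, 1 point per library, with the mean and SD of 3 libraries in black except for *Lypd3*, which was at 0 in 2 libraries. The axes differ between panels: *Lypd8* lies between 113 and 122 FPKM in both groups, *Lypd8l* moves from at most 0.941 to at least 8.41 FPKM, and *Ly6e* from at most 9.05 to at least 19.4 FPKM.

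Across the 6 members, 4 had groups that did not overlap with MMK-1 higher and 2 had groups that overlapped, beside the 34.6% of all genes above 0 that were higher without overlap. All 3 members that passed the filter belong to a comparison in which 73.2% of genes were called and 76.8% had groups that did not overlap. The members' summed FPKM was between 122 and 127 in the control libraries and between 142 and 154 in the MMK-1 libraries. *Lypd8* made up 91.9% to 92.6% of that sum in the control libraries and 78.1% to 79.8% in the MMK-1 libraries. The order of the mean levels was *Lypd8*, *Ly6e*, *Lypd8l*, *Ly6a*, *Ly6d*, *Lypd3* with MMK-1. In the controls *Ly6a* and *Ly6d*, at 0.107 and 0.129 FPKM, did not differ beyond their spread.

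**Figure D2:**
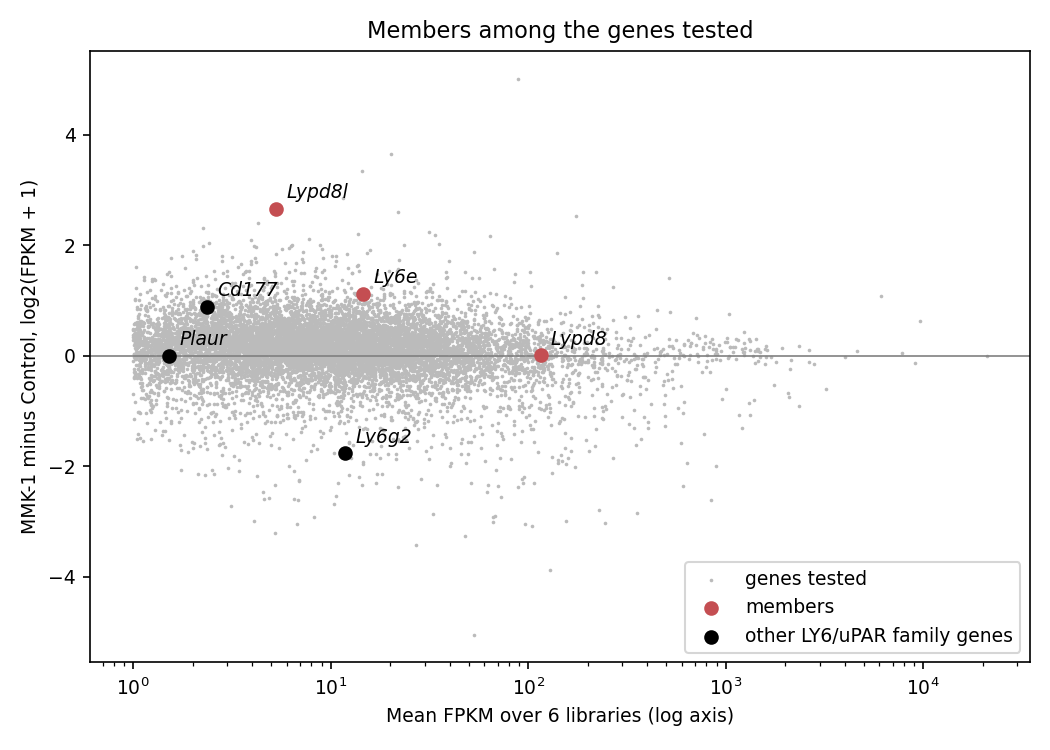
Difference between MMK-1 and Control on the log2(FPKM + 1) scale against the mean FPKM of 6 libraries on a log axis, for the 10551 genes tested, with the 3 members in red and the other 3 tested LY6/uPAR genes in black. *Lypd8l* at 2.66 lies near the upper edge of the cloud, *Lypd8* at 0.01 lies on the zero line, and *Ly6g2* at -1.76 lies below most genes of its level.

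The rest of the LY6/uPAR family was then examined, since the choice of the 6 members had not taken these genes. Of 40 further family genes, 26 were in the table and 3 had a mean of at least 1 FPKM. One was higher, 1 was lower, and 1 was not called. *Ly6g2*, a gene of the chromosome 15 cluster at chr15:75216351-75222661 in RefSeq, fell from 20.1, 17.4, and 18.8 FPKM in the control libraries to 4.54, 4.93, and 4.96 FPKM in the MMK-1 libraries. The 2 groups were widely separated, with means of 18.8 ± 1.36 and 4.81 ± 0.233 FPKM (SD, n = 3), a log2 difference of -1.76 with a standard error of 0.06, and a limma adjusted p of 5.47e-08. *Ly6g2* was thus above *Ly6e* in each control library and below it in each MMK-1 library.

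*Cd177*, which encodes a GPI-anchored protein best known from neutrophils, rose from 1.35 ± 0.0559 to 3.37 ± 0.163 FPKM (SD, n = 3), a log2 difference of 0.89 with a standard error of 0.06 and a limma adjusted p of 1.68e-06. *Plaur*, the urokinase receptor, measured 1.52 ± 0.32 FPKM in Control and 1.53 ± 0.344 FPKM in MMK-1, and its groups overlapped (limma adjusted p = 0.971). Adding the members to these 26 genes gave a family total of 147 to 151 FPKM in the control libraries and 153 to 166 FPKM in the MMK-1 libraries. The 26 genes alone summed to 21.8 to 25.1 FPKM and 11.1 to 11.4 FPKM, most of it *Ly6g2* in the controls.

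Family genes under 1 FPKM entered only a fit over every gene above 0, in which 28.1% of genes were higher and 15.2% were lower. In that fit, 3 of the 26 family genes were higher and 3 were lower, *Cd177* and *Ly6g2* included. Small LY6 genes in a cluster on chromosome 17 moved in both directions. *Ly6g6c* fell from 18, 22, and 33 fragments to 3, 2, and 6 (limma adjusted p = 0.00405). *Ly6g6e* rose from 1, 0, and 1 fragments to 16, 8, and 7 (limma adjusted p = 0.0172), and *Ly6g6d* rose from 3, 1, and 10 to 10, 17, and 17 fragments (limma adjusted p = 0.0372). *Ly6g6d* and *Ly6g6e* overlap in the annotation, so their fragments may not be separable. *Lypd6b* fell from 37, 24, and 35 fragments to 5, 6, and 11 (limma adjusted p = 0.00298). *Lypd6*, related to *Lypd6b* and known to modulate Wnt signalling, held 17, 18, and 22 fragments in Control and 14, 22, and 25 in MMK-1, with overlapping groups.

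The remaining family genes with at least 10 fragments were not called. *Ly6g5b*, which overlaps *Csnk2b*, held 227 fragments in Control and 124 in MMK-1, summed over 3 libraries. *Lynx1* held 50 and 41, *Psca* 9 and 2, *Gml* 12 and 8, *Gml2* 10 and 3, *Cd59a* 6 and 7, and *Cd59b* 11 and 14. The complement inhibitor CD59, a widely expressed GPI-anchored protein of this family, was therefore at most a trace in these libraries from either gene copy.

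**Figure D3:**
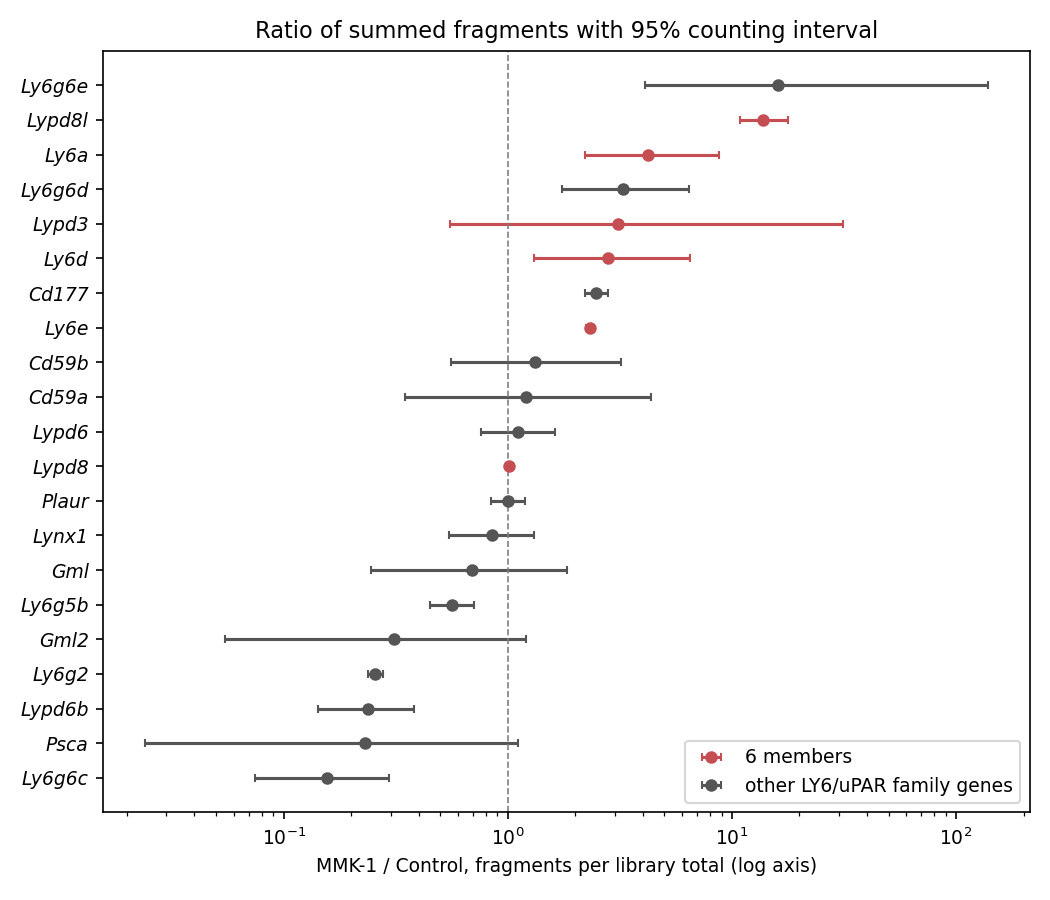
Ratio of MMK-1 to Control fragments, summed over 3 libraries and divided by the library totals, on a log axis with the 95% counting interval, for the 6 members (red) and the 15 other family genes with at least 10 fragments (grey). *Ly6g6e* at 16.0 and *Lypd8l* at 13.8 lie at the top, with intervals of 4.08 to 138 and 10.8 to 17.8, and *Ly6g6c* at 0.156 lies at the bottom.

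Most proteins of this family need the GPI anchor pathway, which builds the glycolipid in the endoplasmic reticulum, attaches it to the protein, and remodels it on the way to the surface. Of 32 tested genes of this pathway, 14 were higher, 7 were lower, and 11 were not called in the limma fit. Beside these counts, and those of the lists below, 48.5% of all genes tested were higher and 24.7% were lower. The median log2 difference of the pathway genes was 0.05 beside 0.13 for all genes tested. Upper-quartile scaling gave 11 higher and 9 lower with a median of -0.02. *Pgap4*, which adds a sugar side branch to the anchor, rose by 0.79 on the log2 scale, and *Pgap1*, which removes an acyl chain from the anchor, rose by 0.77. *Gpld1*, which encodes a phospholipase that cuts GPI anchors, rose by 0.59. *Mppe1* (PGAP5), which trims the anchor for exit from the endoplasmic reticulum, fell by 1.03. *Pigg*, which adds an ethanolamine phosphate to the anchor, fell by 0.75 and *Mpdu1*, needed for the use of dolichol-linked mannose, fell by 0.47. Their limma adjusted p values lay between 3.87e-07 and 8.36e-05.

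Other GPI-anchored proteins of the cell surface moved in both directions as well. Of 19 tested genes, 7 were higher, 7 were lower, and 5 were not called, with a median log2 difference of 0.09. *Akp3*, an intestinal alkaline phosphatase, rose from 2.31 ± 0.179 to 13.3 ± 0.629 FPKM (SD, n = 3), whereas its close relative *Alpi*, the phosphatase of mature enterocytes, fell from 119 ± 2.61 to 60.6 ± 3.93 FPKM. How fragments common to these similar genes were counted is not given. *Efna4*, an ephrin ligand, rose by 1.68 on the log2 scale and *Cd24a*, a surface glycoprotein used to sort crypt cells, rose by 1.34. The brush-border enzymes *Dpep1* and *Treh*, a dipeptidase and a trehalase, fell by 2.23 and 1.79, and *Vnn1*, a pantetheinase, fell by 1.59. Of these 7 genes, the largest limma adjusted p was 5.96e-07 for *Alpi*. Each of these genes is attached to the membrane by the same kind of anchor as LYPD8, and the difference of *Lypd8* lay in the middle of theirs. That of *Lypd8l* was above the highest of them, which follows from its choice for a difference among the largest of all genes.

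**Figure D4:**
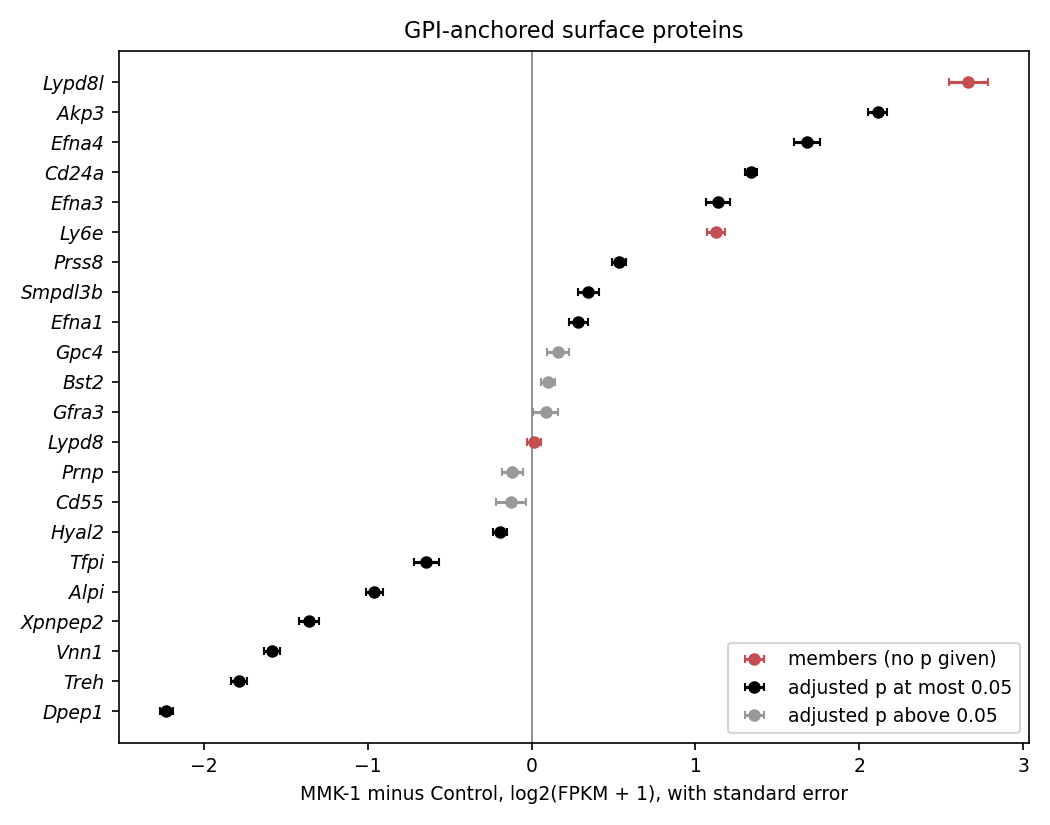
Difference between MMK-1 and Control on the log2(FPKM + 1) scale with its standard error for 19 tested genes of other GPI-anchored surface proteins (black where the adjusted p was at most 0.05, grey where it was above) and for 3 members, for which no p is given because they were chosen on this comparison (red). The genes run from *Dpep1* at -2.23 to *Lypd8l* at 2.66, with *Ly6e* at 1.13 and *Lypd8* at 0.01 between them.

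LYPD8 acts beside mucus proteins and antibacterial lectins. All 13 tested genes of such barrier proteins passed the limma test, 6 higher and 7 lower, with a median log2 difference of -0.35. *Itln1*, a lectin that binds microbial sugars, rose by 2.54, the Paneth cell lysozyme *Lyz1* rose by 1.87, and the angiogenin *Ang4* rose by 1.54. *Reg3b*, *Reg3a*, and *Reg3g*, which encode antibacterial C-type lectins, fell by 5.05, 3.05, and 2.23. *Zg16*, a lectin that aggregates Gram-positive bacteria, fell from 330 ± 5.45 to 106 ± 5.13 FPKM (SD, n = 3, limma adjusted p = 1.45e-08). The ratio of *Lypd8* in the same organoids was 1.01.

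*Ly6e* and *Ly6a* can be induced by interferon, so their levels were set beside other interferon target genes. Of 19 tested genes, 16 were lower with MMK-1, 1 was higher, and 2 were not called, with a median log2 difference of -1.13. *Oasl2* fell by 2.59, *Ifi27* by 2.25, and *Isg15*, a ubiquitin-like protein, by 2.14, with limma adjusted p values up to 1.17e-06. The gene that was higher was *Oasl1*, which rose by 0.19 (limma adjusted p = 0.00386) and was not called under upper-quartile scaling. *Bst2*, which is both an interferon target and a GPI-anchored protein, measured 18.1 ± 0.424 and 19.4 ± 0.712 FPKM (SD, n = 3, limma adjusted p = 0.068). *Ly6e*, at a log2 difference of 1.13, differed in the opposite direction to the 16 lower genes.

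*Ly6a* also belongs to the genes of fetal-like and regenerating epithelium. Of 11 tested genes of that list without *Ly6a*, 7 were higher, 3 were lower, and 1 was not called, with a median log2 difference of 0.61. *Cldn4*, a tight-junction protein, rose by 1.41, the growth factor *Areg* rose by 1.04, and *Ccn1*, a target of YAP, rose by 0.89. *Clu*, the marker of revival stem cells, fell from 3.21 ± 0.355 to 0.281 ± 0.0989 FPKM (SD, n = 3), a log2 difference of -1.71, and *Krt19* and *Mfge8* differed by -0.78 and -0.56. The limma adjusted p values of these 6 genes were at most 7.01e-06. Another 9 genes of the list were below the filter. Among them, *Anxa1* measured 0.874 ± 0.0707 FPKM in Control and 0.651 ± 0.249 FPKM in MMK-1. *Msln* rose from 0.388 ± 0.207 to 1.51 ± 0.121 FPKM (SD, n = 3). In the fit over every gene above 0, 8 of 20 genes of the list were higher and 4 were lower. The shares of all genes in that fit were 28.1% and 15.2%.

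The squamous genes that *Lypd3* and *Ly6d* usually accompany were nearly absent. Of 9 such genes in the table, 8 were below 1 FPKM, and the basal keratins *Krt5* and *Krt14* had means of at most 0.0162 FPKM in either group. The exception was *Sfn* (14-3-3 sigma), which is also expressed in other epithelia and rose from 45.9 ± 2.56 to 63 ± 2.03 FPKM (SD, n = 3, limma adjusted p = 5.18e-05).

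Markers of the epithelial cell types differed between the groups in both directions, depending on the cell type. All 12 tested stem cell markers, all 10 cycling cell markers, and all 9 tested Paneth cell markers were higher with MMK-1, with summed levels rising from 99.2-102 to 456-484 FPKM, from 236-238 to 398-410 FPKM, and from 450-496 to 1430-1562 FPKM over the libraries. Among goblet cell markers 8 of 11 were higher and 2 lower, and among enteroendocrine markers 10 of 13 were higher and none was lower. Of 19 tested enterocyte markers 17 were lower and 1 was higher, the exception being *Fabp1* at 0.17, which was not called under upper-quartile scaling, and their summed level fell from 15350-15540 to 10450-11240 FPKM. The part of these shifts in the levels of *Lypd8l* and *Ly6e* was not tested. Beside the fall of the enterocyte markers, *Lypd8* averaged 115 and 116 FPKM in the 2 groups.

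Since LYPD8 is best known from the colon, colonocyte markers were looked at. All 4 tested markers of 7 in the table were lower, and their sum fell from 526-539 to 261-269 FPKM. These 4, *Guca2a*, *Muc3*, *Slc26a3*, and *Ceacam20*, are also expressed in the small intestine, while *Car4* and *Aqp8*, which mark the colon more strictly, were at most 0.217 FPKM on average in either group. Non-epithelial cells left little RNA. The pan-leukocyte gene *Ptprc* averaged at most 0.00757 FPKM and the T cell gene *Cd3e* at most 0.0117 FPKM, and the summed level of 9 immune markers was 6.21 to 6.74 FPKM in Control and 2.47 to 3.32 FPKM in MMK-1, mostly *Cd68* and *Itgam*. Of 7 endothelial markers, *Kdr* was at 0 in all libraries and the sum was 1.06 to 1.13 and 2.04 to 2.45 FPKM, led by *Egfl7*. The 9 fibroblast markers summed to 5.81 to 6.26 and 3.64 to 5.25 FPKM, led by *Vim*. All 10 tuft cell markers were below 1 FPKM, with sums of 2.1 to 2.49 and 2.51 to 3.01 FPKM.

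The genes most like each member were found by the root mean square difference of their log2 profiles over the 6 libraries, after subtracting each gene's control mean. Nearest to *Lypd8l* were *Itln1* (0.18), *Cnn3* (0.20), and *Lgr5* (0.22). These distances rest on log2(FPKM + 1), which understates the change of *Lypd8l*, and on the rise for which it was chosen. With a pseudocount of 0.1 the difference of *Lypd8l* was 3.65, and its nearest genes at that setting were not examined. *Itln1* measured 50.3, 52.5, and 49.9 FPKM in Control and 291, 294, and 316 FPKM in MMK-1. Nearest to *Ly6e* were *Lipg*, an endothelial-type lipase (0.03), *Rph3al*, a regulator of exocytosis (0.03), and *Bub1b*, a mitotic checkpoint kinase (0.03). Nearest to *Lypd8* were *Xpo7*, an exportin (0.00452), and *Ucp2*, a mitochondrial carrier (0.01), whose own differences between the groups were both 0.01 on the log2 scale. The profiles share the same 6 libraries, and the measure describes them only.

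The neighbourhoods of the 2 *Lypd8* genes were compared last. Within 200 kb of *Lypd8*, 3 genes were tested and all 3 were higher with MMK-1 in the limma fit. The background for this count is a call of higher for 48.5% of the 10551 genes and of lower for 24.7%. So few neighbours cannot set the locus apart from it. *Zfp692* rose by 0.87 (limma adjusted p = 9.58e-07), *Sh3bp5l* by 0.27 (limma adjusted p = 0.000976), and *Zfp672* by 0.32 (limma adjusted p = 0.0013). The interferon-inducible GTPase genes *Igtp* and *Irgm2*, also within this distance, measured 1.63 and 0.858 FPKM in Control and 0.195 and 0.215 FPKM in MMK-1 and were below the filter. Within 200 kb of *Lypd8l*, where many annotated genes encode olfactory receptors, 1 gene was tested, *Fam183b*, which rose by 0.40. Near *Lypd3*, 5 of 7 tested genes were higher, *Cd177* among them, and none was lower, to be read beside the same shares of all genes. Around *Ly6e*, none of the neighbours in the table reached the filter, and the highest of their group means was 0.45 FPKM, that of *Ly6a* with MMK-1.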

How the data were processed

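RNA sequencing was performed by the authors on 3 Control and 3 MMK-1 libraries. The authors deposited FPKM values, that is, fragments divided by gene length and library total, and the submitters' processing notes name HISAT2, HTSeq, DESeq2, R 3.2.0, and mm10; the annotation is not given in the sources used here. FPKM values were whole multiples of 1 step per gene and library, from which fragments were recovered for 100% of 20676 genes above 0 (tolerance 0.02 fragments), and totals of 35512739 to 37537463 fragments per library.

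Differences were fitted with limma-trend (limma 3.58.1, R 4.3.3) on log2(FPKM + 1) for the 10551 genes that averaged at least 1 FPKM, without a replicate block, and p-values were adjusted by Benjamini-Hochberg. Scripts were tested on simulated data. Ratios of fragments carry exact 95% counting intervals. The members and gene lists were chosen with earlier results of these data known. Named were all members, family genes with at least 1 FPKM or 10 fragments, and the 3 largest called changes in each direction of each other list, with markers and exceptions named besides after their values were seen. Positions came from GENCODE vM21 (GRCm38), promoters and neighbours from RefSeq (GRCm38.p6). Family genes outside the table and the formyl peptide receptor family were not analysed here, and some results are not reported here. Python 3.11.15, numpy 2.4.6, pandas 2.3.3, scipy 1.17.1, and matplotlib 3.10.9 were used.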

Additional observations from a re-analysis of the deposited data

How the results depend on the processing

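Alternatives covered scaling, unit, pseudocount, filter, thresholds, a replicate block, limma-voom on fragments, window length, and leaving out each library. Upper-quartile scaling moved *Lypd8* to -0.10 and *Ly6e* to 1.02 on the log2 scale. *Lypd8l* was 3.17 after rescaling to TPM, 3.65 with a pseudocount of 0.1, and 3.81 with limma-voom, and *Ly6e* was 1.20, 1.20, and 1.21. With every gene above 0 in the fit, 3 family genes were higher and 3 were lower, because more genes were tested. A further rule required a difference of at least 1 on the log2(FPKM + 1) scale and an unadjusted p of at most 0.05. It gave 358 genes higher and 385 lower, so that under these 2 changes together the lower genes were the more numerous. For genes of low level, such a difference asks for more than a fold change of 2 in FPKM. *Cd177*, for example, had an FPKM ratio of 2.48 and a difference of 0.89. Shared windows of 100 and 50 bases gave 1.94% and 8.12% for *Lypd3* and 2.44% and 16.0% for *Ly6a*. Leaving out 1 library gave 4702 to 5186 genes higher and 2365 to 2947 lower, and 1 family gene in each direction throughout.

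The replicate numbers did not pair the samples, with correlations of 0.0253, -0.04, and 0.0279 between same-numbered libraries, and a replicate block gave 5024 genes higher and 2543 lower and left 1 family gene in each direction. List counts without MMK-1 replicate 3, under upper-quartile scaling, and as TPM were added after seeing the data; without that library the interferon, barrier, fetal-like, stem cell, and enterocyte counts were the same, and 15 anchor genes were higher and 8 lower. Depth limits what can be read of *Ly6d* and *Lypd3*, which had at most 9 fragments in any library, and of *Ly6a* in the controls, where it had at most 6.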
